A study of Homo sapiens with 16 samples.

Results

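The DNA content of ΔLEO1 cells was compared with that of wild-type cells in the input libraries, which hold sonicated chromatin sequenced without an antibody. The libraries were chosen by their labels, and 8 of the 16 libraries of the series were inputs, 4 of ΔLEO1 and 4 of wild type. All came from BJ-5ta, an established line of human foreskin fibroblasts immortalized with hTERT. The wild type is the same line without the knockout. The ΔLEO1 cells are a single clone, clone 13, grown from cells sorted after electroporation of CRISPR/Cas9 plasmids aimed at exons 1 and 2 of LEO1. Each genotype was sampled in 10% serum, in which the cells proliferate, and after 10 days in 0.1% serum, in which they become quiescent. Each of the 4 combinations had 2 inputs, marked A and B. The labels do not say whether A and B were separate cultures, so p-values measure the spread between these libraries only. With a single clone, what belongs to the loss of LEO1 and what belongs to the clone cannot be told apart.

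In an input library the number of reads from a region follows the number of copies of that region in the cells, together with the base composition of the DNA and how well it was fragmented and amplified. A clone carries the chromosomes of the cell it was grown from, and deletions, duplications and losses of chromosome arms can arise in that cell or later in culture. When only some of the cells carry such a change, the reads shift by less than a whole copy. Deposited read counts over windows around transcription start sites were summed, each distinct window once, over bins of 5 Mb, chromosome arms and chromosomes. The inputs held 2747464 to 7811499 reads over 218284 windows on 24 chromosomes, and the lowest was ΔLEO1 in 10% serum A. A median bin held 291 windows and between 3816 reads in the shallowest library and 10116 in the deepest. Values below are log2 differences from the mean of the 4 wild-type inputs, after TMM scaling of the libraries in edgeR, which sets the middle of the bins near 0. For single bins, arms and chromosomes the ΔLEO1 difference is the fold of the edgeR fit, with an SE derived from its test statistic. For stretches and genes the mean and SE come from the values of the single libraries. On this scale a cell population with 1 copy in place of 2 holds 50% of the reads, and one with 3 in place of 4 holds 75%, a log2 difference of −0.42.

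LEO1, which encodes a subunit of the PAF1 complex that travels with RNA polymerase II, was examined first. The 250 bases before its annotated start are shown because this promoter lies in the windows that were counted. They are taken from RefSeq at chr15:51971779-51972028 of GRCh38.p14, on the minus strand, with CG dinucleotides in capitals.
LEO1 promoter: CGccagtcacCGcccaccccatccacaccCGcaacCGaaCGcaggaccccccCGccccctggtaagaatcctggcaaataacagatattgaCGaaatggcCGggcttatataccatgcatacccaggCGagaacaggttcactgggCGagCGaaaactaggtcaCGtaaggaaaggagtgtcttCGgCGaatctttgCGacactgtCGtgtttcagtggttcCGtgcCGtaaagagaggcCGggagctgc
The sequence holds 19 CG dinucleotides and is 57.2% G or C. The 3 windows of LEO1 span chr15:51954061-51972778 and cover 2 start positions that lie within 2 bases of each other and 1 start further inside the gene. Their summed reads were 77 and 147 in wild type in 10% serum, and 95 and 83 in 0.1% serum. The ΔLEO1 inputs held 41 and 83 reads in 10% serum and 62 and 74 in 0.1% serum. Scaled to library size (CPM) this was 16.1 ± 2.25 in wild type (SD, n = 4) and 12.6 ± 1.85 in ΔLEO1 (SD, n = 4). The groups overlapped, since ΔLEO1 in 10% serum A was at 14.5 CPM and wild type in 0.1% serum B at 14.2 CPM. The log2 difference was −0.35 ± 0.15 (SE), with a two-sided exact permutation p = 0.057, and the smallest p that 4 against 4 allows is 0.0286. Within each letter both ΔLEO1 inputs were below both wild-type inputs, at 14.5 and 13.7 against 15.2 and 15.6 CPM for A and at 11.7 and 10.4 against 19.3 and 14.2 CPM for B. Permuting within letters as a replicate block gave an exact permutation p = 0.056, which is the smallest that test can give, so it could not pass 0.05. Windows of the 2 neighbouring starts count nearly the same reads, so the summed reads exceed the number of separate fragments. How much of each window lies in the removed DNA is not known, so these reads do not check the genotype labels. Over all windows within 1 Mb of LEO1 the difference was −0.004 ± 0.018 (SE), and the groups overlapped. The other 5 subunits of the complex with windows, PAF1, CTR9, CDC73, RTF1 and WDR61, lay between −0.04 and 0.09 with overlapping groups.

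Along the genome, ΔLEO1 inputs held fewer reads than wild type over most of the long arm of chromosome 4, over a block of the short arm of chromosome 3 and over part of the short arm of chromosome 5. Of 600 bins tested, 28 were lower in ΔLEO1 (4.67% of the bins) and 1 was higher (0.167%) at an adjusted p under 0.05 (edgeR quasi-likelihood test, two-sided, serum as a term, Benjamini-Hochberg). Of these 29 bins, 24 formed 3 stretches, defined as runs of at least 2 neighbouring bins called in the same direction with at most 1 uncalled bin between them. The remaining 5 stood alone. Because the stretches were chosen from this fit, their own input values are descriptions. Libraries also differed in how reads followed base composition. The slope on the mean G and C content of promoters per bin ran from −0.09 to 0.13 log2 units per 10% in wild type and from −0.12 to 0.07 in ΔLEO1, lowest in ΔLEO1 in 10% serum A. When this relation was removed from each library (GC correction, possible for 571 bins), 36 bins were lower (6.3%) and 6 higher (1.05%), and all 29 bins called without it were called again in the same direction.

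**Figure D1:**
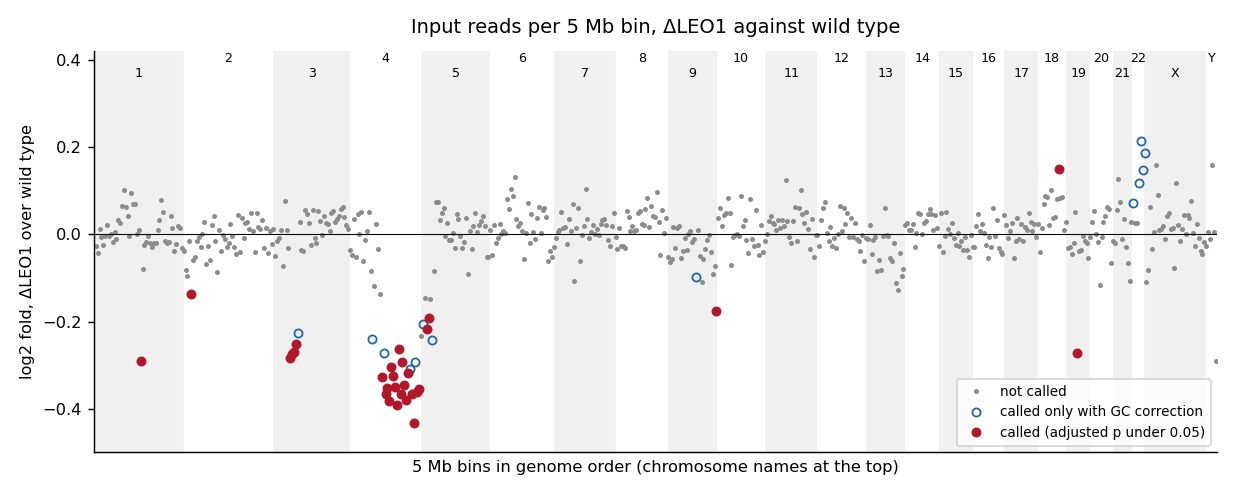
Each point is a 5 Mb bin in genome order, with the log2 fold of ΔLEO1 over wild type from the fit of the 8 inputs on the vertical axis; filled red points were called, open blue points were called only with the GC correction. The red points cluster on chromosomes 3, 4 and 5, and the open points on chromosome 22 are the only raised cluster.

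The stretch on the long arm of chromosome 4, chr4:85000001-190000000, covered 105 Mb and 21 bins, of which 18 were called. Over the whole stretch ΔLEO1 lay at −0.18 in 10% serum A, −0.32 in 10% serum B, −0.45 in 0.1% serum A and −0.44 in 0.1% serum B. The wild-type inputs lay at −0.005, −0.05, 0.03 and 0.02 in the same order. The groups did not overlap, and both quiescent ΔLEO1 inputs were lower than both proliferating ones. The mean difference was −0.346 ± 0.065 (SE), which is 78.7% of the wild-type reads, and 73.2% to 88.1% in single libraries. The stretch held 57145 to 168439 window reads per library, some of them counted in more than 1 window. The bin with the lowest value, from 170 to 175 Mb, was at −0.43 ± 0.06 (SE), with adjusted p = 0.0010. The called bin nearest to the threshold, from 130 to 135 Mb, was at −0.26 ± 0.06 with adjusted p = 0.034. The 3 uncalled bins, which start at 90, 160 and 175 Mb, were at −0.27, −0.31 and −0.29 and held 81 to 96 windows each. The called bin from 130 to 135 Mb held 89. With the GC correction all 21 bins were called, and over the whole stretch the groups again lay apart, as they did in this direction in 5.95% of all bins after correction.

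**Figure D2:**
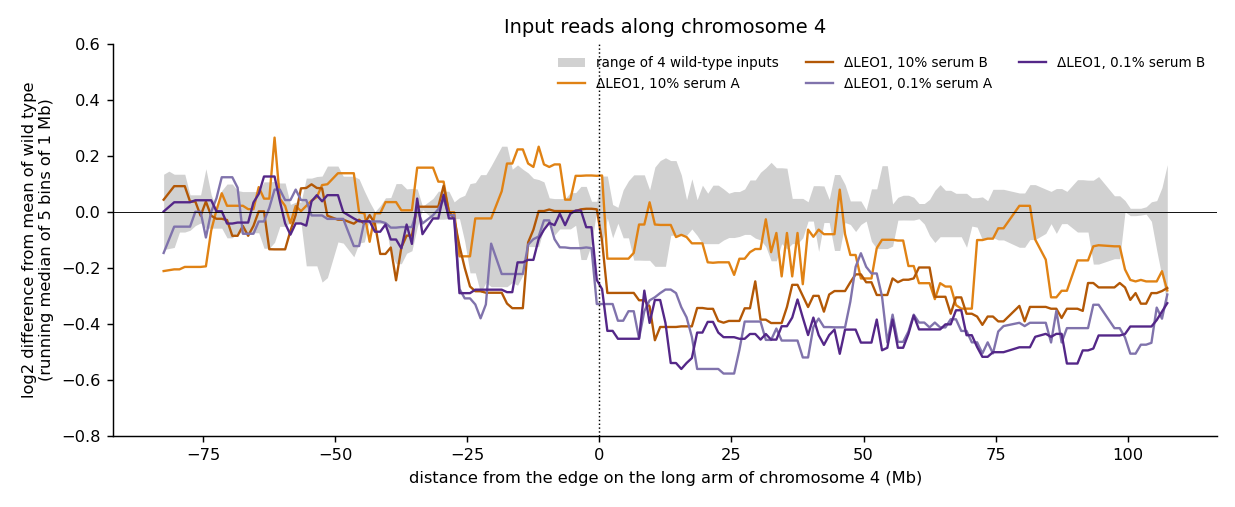
Log2 differences from the wild-type mean in bins of 1 Mb along chromosome 4, as running medians of 5 bins, against the distance in Mb from the edge at 83 Mb; the band is the range of the 4 wild-type inputs and each line is a ΔLEO1 input. All 4 lines drop at the edge, and 3 of them also dip between about 27 and 14 Mb before it. Just beyond the edge the level was highest in ΔLEO1 in 10% serum A.

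The edge of this stretch was placed where bins of 1 Mb within 15 Mb of its end were best divided into 2 levels by least squares. It fell at 83 Mb, with a mean of −0.003 on the side of the centromere and −0.31 beyond it. Single ΔLEO1 inputs put it at 83 Mb (10% serum A), 84 Mb (10% serum B), 83 Mb (0.1% serum A) and 82 Mb (0.1% serum B), so the 4 libraries placed it within 2 Mb. The GC correction did not move it. At the other end the stretch came close to the last windows of the chromosome, so no second edge was sought there. The gene with the nearest window before the edge was LIN54, a DNA-binding subunit of the DREAM complex that represses cell-cycle genes in resting cells, at 72 kb, and the nearest after it was the small RNA pseudogene RNU6-615P, at 3 kb. LIN54 has windows on both sides of the edge, and RNU6-615P lies between them. Reads within 1 Mb of LIN54, which straddle the edge, were at −0.12 ± 0.09 (SE) with overlapping groups. PRDM8, of the histone methyltransferase list on the centromere's side of the edge, was at 0.03 ± 0.12 with overlapping groups.

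The stretch on the short arm of chromosome 3, chr3:40000001-60000000, covered 4 bins, all of them called, at −0.25 to −0.28. Over the stretch ΔLEO1 lay at −0.35 in 10% serum A, −0.30 in 10% serum B, −0.21 in 0.1% serum A and −0.22 in 0.1% serum B. The wild-type inputs lay at 0.02, 0.09, −0.06 and −0.05 in the same order. The groups did not overlap. Unlike on chromosome 4, the proliferating ΔLEO1 inputs were the lower pair. The mean difference was −0.27 ± 0.05 (SE), or 82.8% of the wild-type reads. With the GC correction it was −0.23 ± 0.03 (SE), and the stretch gained the bin from 60 to 65 Mb, whose uncorrected value was −0.23 with adjusted p = 0.092. The edges were found at 40 Mb and 66 Mb. The first was placed at 36, 41, 41 and 40 Mb by the single ΔLEO1 inputs (10% serum A and B, then 0.1% serum A and B), and the second at 60, 66, 54 and 66 Mb. The first edge lay between RNU4-56P and a window of MYRIP, which links myosin and Rab27a, and the second between MAGI1-IT1 and a window of MAGI1, a scaffold protein of cell junctions. MYRIP and MAGI1 have windows on both sides of these edges.

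The stretch on the short arm of chromosome 5, chr5:10000001-20000000, was the shortest, with 2 bins, both called, at −0.22 ± 0.04 and −0.19 ± 0.04 (SE). Over the stretch ΔLEO1 lay at −0.14 in 10% serum A, −0.17 in 10% serum B, −0.25 in 0.1% serum A and −0.26 in 0.1% serum B. The wild-type inputs lay between −0.02 and 0.03, below which all ΔLEO1 inputs fell. The mean difference was −0.21 ± 0.03 (SE), or 86.7% of the wild-type reads. With the GC correction the same rule, applied after the data were seen, joined the bins from the chromosome end to 30 Mb into 1 stretch of 6 bins with 4 called, at −0.16 ± 0.04 (SE). Its edge fell at 34 Mb, with −0.18 before it and 0.08 after it. The single inputs placed that edge at 34, 33 and 34 Mb, except for ΔLEO1 in 10% serum A, which placed it at 18 Mb. By the rule for the shorter stretch the right edge was at 33 Mb, between LINC02120 and LINC02160. The left edge, in LINC01020 at 5 Mb, had a step of only 0.11, and single libraries put it between 2 and 22 Mb. The mean was −0.265 on the side of the chromosome end and −0.159 on the other, so this edge does not mark where the lower reads begin. TERT, the gene of the telomerase catalytic subunit, lies in the longer stretch and was singled out after its values were seen, since the line was immortalized with hTERT. Reads within 1 Mb of it were at −0.21 ± 0.09 (SE), and −0.16 with the GC correction, and its groups overlapped.

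**Figure D3:**
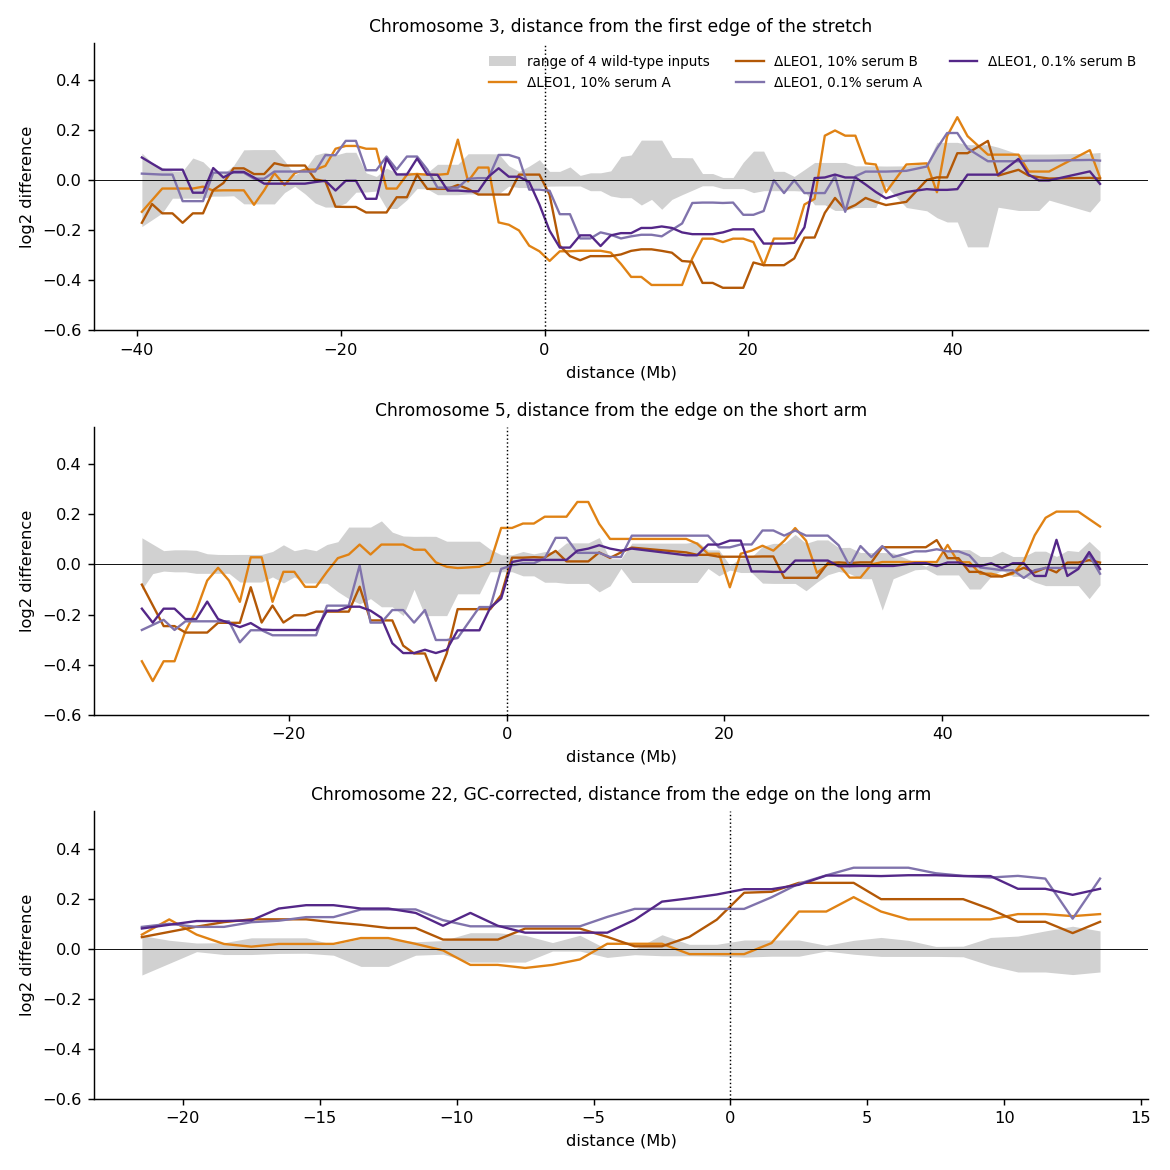
Log2 differences from the wild-type mean in bins of 1 Mb, as running medians of 5 bins, against the distance in Mb from the first edge on chromosome 3, the edge at 34 Mb on chromosome 5 and the edge at 37 Mb on chromosome 22 (GC-corrected); the band is the range of the 4 wild-type inputs. The low block on chromosome 3 ends on both sides, the low part of chromosome 5 reaches to about the edge in 3 of the 4 ΔLEO1 inputs, and the lines on chromosome 22 lie above the band beyond the edge. Of those 3 inputs, ΔLEO1 in 10% serum B was at −0.035 over the first 2 Mb of chromosome 5 and at −0.203 from there to 25 Mb.

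The only stretch that was higher in ΔLEO1 was found in the fit of both sera with the GC correction. On the long arm of chromosome 22, chr22:35000001-50799655, all 4 bins were higher in that fit. None was called in the fit of both sera without it. Within 0.1% serum alone, 3 of the 4 bins were called higher without the correction, and within 10% serum 0 were. Before correction ΔLEO1 lay at −0.07 in 10% serum A, 0.23 in 10% serum B, 0.19 in 0.1% serum A and 0.26 in 0.1% serum B. The wild-type inputs lay at 0.04, 0.12, −0.10 and −0.06 in the same order, so the groups overlapped through ΔLEO1 in 10% serum A. After correction ΔLEO1 lay at 0.09, 0.21, 0.25 and 0.27, and the wild-type inputs between −0.02 and 0.02. The groups no longer overlapped, but ΔLEO1 lay wholly above wild type in 8.23% of all bins after correction. The mean difference then was 0.20 ± 0.04 (SE), or 115.2% of the wild-type reads. The mean G and C content of promoters in these 4 bins, 62.6% to 69.8%, was above that of the bins on chromosome 4, 46.6% to 55.5%. The edge fell at 37 Mb, near TEX33, with a step of 0.11, and single inputs put it between 32 and 37 Mb. From 17 to 37 Mb the same chromosome was at 0.08 after correction. The bin from 20 to 25 Mb, before the edge, was also called higher in the corrected fit (0.09, adjusted p = 0.020, edgeR). None of the 186 genes of the lists described below that had windows lay in this stretch, which held 219 of the 19275 protein-coding symbols with a window. The lists were drawn up with earlier results of these data known, so this count says nothing about them.

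Measures that did not choose the stretches were read in the same places. In the 7 usable H3K9me2 ChIP libraries, 3 of ΔLEO1 and 4 of wild type, 84 of 600 bins were lower in ΔLEO1 (14% of the bins) and 41 were higher (6.83%) by the same test. All 21 bins of the chromosome 4 stretch, all 4 on chromosome 3 and both on chromosome 5 were among the lower ones. Over the chromosome 4 stretch the ΔLEO1 ChIP libraries lay at −0.26 (10% serum B), −0.43 (0.1% serum A) and −0.36 (0.1% serum B), and the wild-type ones between −0.02 and 0.02. Over chromosome 3 they lay at −0.42, −0.11 and −0.19, again lowest in 10% serum, and over chromosome 5 at −0.18, −0.31 and −0.25. On chromosome 22 they lay at 0.07, 0.11 and 0.08, above the wild-type range of −0.05 to 0.02, and 2 of 4 bins were called higher, while the bin from 45 to 50 Mb was at −0.08. ChIP reads carry the level of the mark as well as the DNA content, and the part of each was not tested. TMM scaling sets the middle of the bins near 0 here too, so a shift of the mark over the whole genome would not show in these counts. The eighth ChIP library, ΔLEO1 in 10% serum A, held 50 reads and was left out.

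Input reads over 14323 peak regions that overlap no start-site window gave other positions in the same 8 libraries. There, 11 of 525 bins were lower in ΔLEO1 (2.1%) and 1 was higher (0.19%). On chromosome 4 all 21 bins were below 0 and 9 were called, and the ΔLEO1 inputs lay at −0.16, −0.25, −0.35 and −0.37, in the order used above. On chromosome 3 all 4 bins and on chromosome 5 both bins were below 0, but 0 were called, with 86 and 61 regions in each stretch. In the longer chromosome 5 stretch of the GC-corrected fit all 6 bins were below 0 and 1 was called. It was the bin from 0 to 5 Mb, at −0.19 ± 0.04 (SE, adjusted p = 0.0036, edgeR). The mean differences were −0.29 ± 0.05 on chromosome 4, −0.19 ± 0.06 on chromosome 3 and −0.15 ± 0.03 on chromosome 5 (SE). On chromosome 22 the peak regions gave 0.12 ± 0.05 with overlapping groups, and 2 of the 3 bins that could be tested were above 0. The only higher bin called over peak regions lay there, from 45 to 50 Mb, at 0.17 ± 0.04 (SE, adjusted p = 0.0073, edgeR). The bin from 35 to 40 Mb was at −0.13 and was not called.

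**Figure D4:**
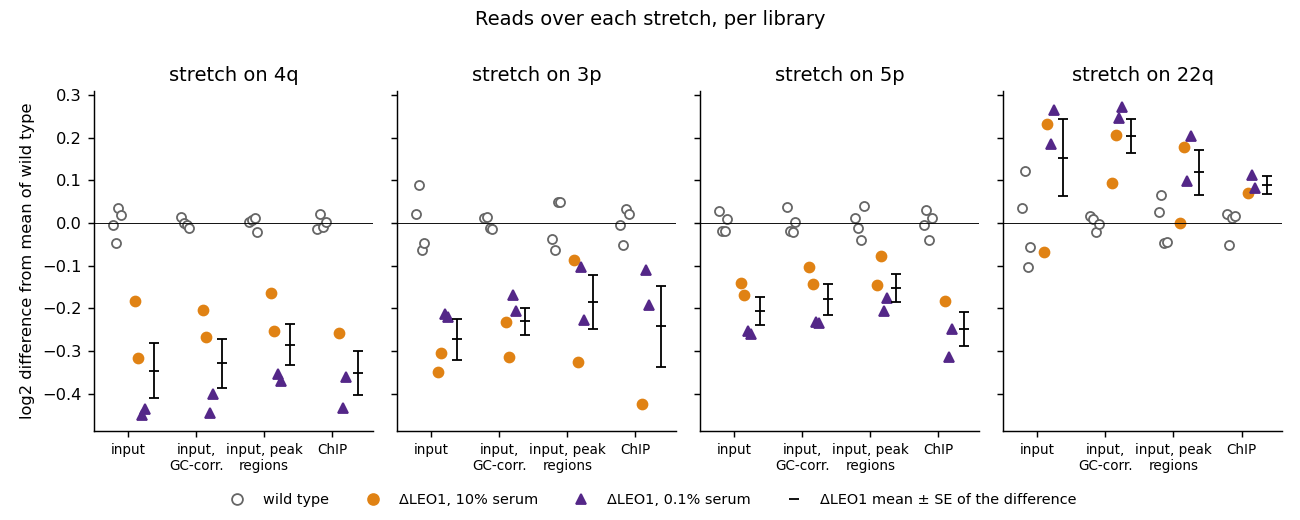
Log2 difference from the wild-type mean for reads summed over each stretch, 1 point per library, in the inputs, the GC-corrected inputs, the input reads over peak regions and the ChIP libraries; bars show the ΔLEO1 mean with the SE of the difference. On 4q, 3p and 5p every ΔLEO1 point lies below every wild-type point in all 4 measures, and on 22q the groups overlap in the uncorrected inputs and the peak regions.

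The genotype differences were also taken within each serum. In 0.1% serum 26 bins were lower (4.33%) and 4 higher (0.667%), and in 10% serum 16 were lower (2.67%) and 1 higher (0.167%). On chromosome 4, 19 of the 21 bins were called in 0.1% serum and 11 in 10% serum. On chromosome 3, 1 of the 4 bins was called in 0.1% serum and all 4 in 10% serum, and on chromosome 5 both bins were called in 0.1% serum and 0 in 10% serum. In the chromosome 22 stretch 3 of the 4 bins were called higher in 0.1% serum and 0 in 10% serum. These 3 lay between 0.31 and 0.46 (adjusted p = 0.015 to 0.018, edgeR, no GC correction). The difference between sera was tested directly as an interaction, and edgeR called 0 of 600 bins, with 86 at an unadjusted p under 0.05, while DESeq2 called 6 lower and 3 higher. On chromosome 4 the ΔLEO1 deficit was deeper in 0.1% serum in 20 of 21 bins, by a median of 0.25 log2 units, and the lowest adjusted p was 0.224. With the replicate letter as a block, 27 bins were called lower and 32 higher in 0.1% relative to 10% serum, and 14 of the 21 bins on chromosome 4 were among the former. On chromosome 3 the interaction was above 0 in all 4 bins, with a median of 0.19, and the block called 1 of them. The library with the smallest deficit on chromosome 4, ΔLEO1 in 10% serum A, was also the shallowest and had the lowest slope on base composition. With the GC correction the interaction fit again called 0 of 571 bins, with 54 at an unadjusted p under 0.05 (edgeR). Over the chromosome 4 stretch the GC-corrected ΔLEO1 inputs lay at −0.203 (10% serum A), −0.267 (10% serum B), −0.446 (0.1% serum A) and −0.401 (0.1% serum B). The part of depth in the difference between sera was not tested, nor was that of base composition beyond this correction.

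Summed over whole arms, 3p was lower in ΔLEO1, at −0.12 ± 0.02 (SE, adjusted p = 0.0195, edgeR), and it was the only 1 of 44 arms called lower (2.27%). No arm was called higher (0%), with 6 of 44 arms at an unadjusted p under 0.05, while DESeq2 called 3 lower and 1 higher. The arm 4q had the largest difference, −0.27 ± 0.06 (SE), with adjusted p = 0.065. Its single values were −0.12, −0.25, −0.37 and −0.35 in ΔLEO1, in the order used above, against −0.04 to 0.03 in wild type, so the groups did not overlap and ΔLEO1 varied more than wild type. The arm 2p was at −0.04 ± 0.01 (SE), with adjusted p = 0.063, 5p at −0.08 ± 0.04 with adjusted p = 0.39 and 22q at 0.10 ± 0.06 with adjusted p = 0.49. Without ΔLEO1 in 10% serum A, 6 arms were lower and 2 higher, and 4q (−0.33, adjusted p = 0.0033), 5p (−0.12, adjusted p = 0.0114) and 22q (0.15, adjusted p = 0.0144) were among them. Of 24 chromosomes edgeR called 0, with 4 at an unadjusted p under 0.05, and DESeq2 called 2 lower and 1 higher. Chromosome 4 was at −0.19 ± 0.05 (SE, adjusted p = 0.103), and its short arm, 4p, was at −0.02 ± 0.01.

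The 3 lower stretches held windows of 1348 gene symbols, 636 of them protein-coding in RefSeq, which is 3.30% of the 19275 protein-coding symbols with a window. Genes of 7 lists were looked up in them, and 35 were found inside. The lists had been drawn up with the positions of these stretches known, so the number found says nothing about the lists. The first 30 in list order are named here, 23 on chromosome 4 and 7 on chromosome 3. Each value is taken over all windows within 1 Mb of the gene, so neighbouring genes share reads. All 30 had ΔLEO1 inputs below all wild-type inputs, and so did 4 of the other 5. Over the genome the groups lay apart in this direction in 6% of bins. That share is over bins of 5 Mb, not ranges around genes. It also includes bins of the stretches themselves, 18 on chromosome 4, 4 on chromosome 3 and 2 on chromosome 5. The separation at the listed genes follows in part from the choice of the stretches.

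Genes of mitosis and the cell cycle were CCNA2 (cyclin A2), MAD2L1 of the spindle checkpoint, PLK4, the kinase that starts centriole duplication, CENPE, a kinetochore motor, ANAPC10, a subunit of the anaphase-promoting complex, and H2AZ1, a histone variant, all on chromosome 4, and CDC25A, a phosphatase that activates cyclin-dependent kinases, on chromosome 3. Their means lay between −0.46 and −0.26. The lowest was PLK4, with −0.17 in 10% serum A, −0.34 in 10% serum B, −0.78 in 0.1% serum A and −0.55 in 0.1% serum B, against −0.06 to 0.06 in wild type. The ΔLEO1 libraries at PLK4 spread more widely than over the stretch as a whole. CCNA2 was at −0.15, −0.29, −0.47 and −0.41 in the same order, against −0.07 to 0.05 in wild type. CDC25A showed the order of the chromosome 3 stretch, with −0.34, −0.28, −0.23 and −0.20, against −0.08 to 0.12 in wild type. CPE, a carboxypeptidase that processes hormone precursors, was the only gene inside a stretch from the list of genes that the study followed in quiescence. It was at −0.10, −0.37, −0.53 and −0.44, against −0.06 to 0.05 in wild type.

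Genes known as tumour suppressors or oncogenes lay in both stretches. On chromosome 3 these were BAP1, a deubiquitinase of histone H2A, PBRM1, a subunit of the PBAF remodelling complex, SETD2, the methyltransferase of lysine 36 of histone H3, RASSF1, which links Ras to apoptosis, and CTNNB1 (β-catenin). BAP1 was at −0.41 in 10% serum A, −0.27 in 10% serum B, −0.20 in 0.1% serum A and −0.17 in 0.1% serum B, against −0.10 to 0.11 in wild type. PBRM1 lies within 1 Mb of BAP1 and shared most of its reads, with a mean of −0.26 ± 0.07 (SE). SETD2 had −0.30 ± 0.05 and RASSF1 −0.29 ± 0.08 (SE). On chromosome 4 they were FBXW7, which marks cyclin E for degradation, FAT1, a protocadherin, TET2, which oxidizes 5-methylcytosine, and ING2, which reads methylated lysine 4 of histone H3. FBXW7 had the most even values of these, −0.40, −0.37, −0.46 and −0.37 in ΔLEO1, against −0.09 to 0.09 in wild type. TET2 was nearest to overlap, since ΔLEO1 in 10% serum A was at −0.15 and wild type in 10% serum B at −0.14. FHIT, at the far end of the chromosome 3 block and inside the stretch with the GC correction only, was at −0.30 ± 0.09 (SE) and was singled out after its values were seen.

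The ligands on chromosome 4 were FGF2, EGF, VEGFC and PDGFC, growth factors for fibroblasts, epithelium and vessels, and on chromosome 3 WNT5A, a ligand of the non-canonical Wnt pathway. FGF2, a mitogen of fibroblasts, was at −0.17, −0.36, −0.45 and −0.37 in the order used above, against −0.09 to 0.07 in wild type. WNT5A was at −0.41, −0.37, −0.11 and −0.26, against −0.03 to 0.04 in wild type, so the proliferating ΔLEO1 inputs were the lower ones. Of receptors and transducers the stretch held BMPR1B, a receptor of bone morphogenetic proteins, and SMAD1, which carries their signal to the nucleus. BMPR1B had a mean of −0.29 ± 0.09, and ΔLEO1 in 10% serum A was at −0.06 beside a wild-type range of −0.04 to 0.05. SFRP2 and DKK2, secreted antagonists of Wnt ligands, were at −0.42 ± 0.09 and −0.44 ± 0.10 (SE), and LEF1, the transcription factor at the end of that pathway, was at −0.44 ± 0.11. COL25A1, a transmembrane collagen, PALLD (palladin) and SYNPO2, both actin-binding proteins, were at −0.39, −0.34 and −0.27.

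**Figure D5:**
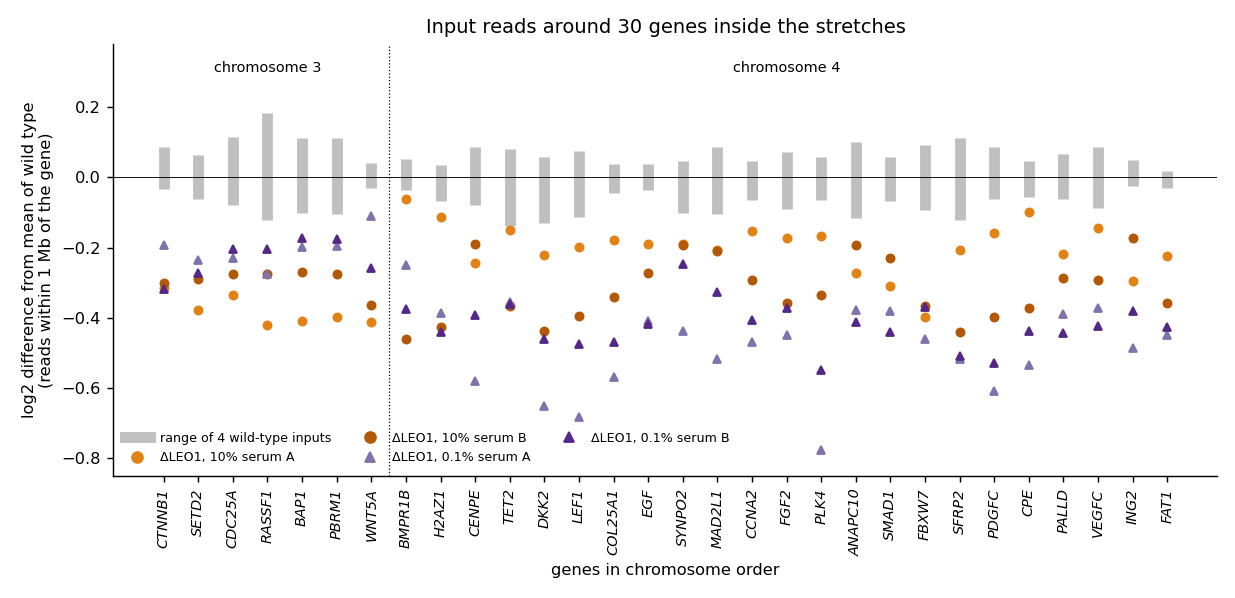
Log2 difference from the wild-type mean for input reads within 1 Mb of each of the 30 named genes, in chromosome order; grey bars span the 4 wild-type inputs, circles are ΔLEO1 in 10% serum and triangles ΔLEO1 in 0.1% serum. Circles are mostly the lower points on chromosome 3, and triangles are mostly the lower points on chromosome 4.

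Outside the stretches 5 bins were called, each in 11 to 19 of 19 alternative settings. The bin from 0 to 5 Mb on chromosome 10 was at −0.18 ± 0.03 (SE), with adjusted p = 0.0034. Its ΔLEO1 inputs lay at −0.13, −0.13, −0.22 and −0.22, in the order used above, and the wild-type ones between −0.07 and 0.07. PITRM1, a mitochondrial peptidase and the gene with most windows there, was at −0.20 ± 0.03. The bin from 20 to 25 Mb on chromosome 2 was at −0.14 ± 0.03 (SE, adjusted p = 0.025, edgeR). Reads within 1 Mb of its leading gene, DNAJC27-AS1, were at −0.07 ± 0.05 with overlapping groups, but part of that range lies beyond the end of the bin. The bin from 120 to 125 Mb on chromosome 1, beside the centromere, was at −0.29 ± 0.06 (SE, adjusted p = 0.015), and its leading gene was the pseudogene FCGR1BP, which has near-identical copies, so that its reads are uncertain. The bin from 25 to 30 Mb on chromosome 19 was at −0.27 ± 0.07 (SE, adjusted p = 0.039). Its list member CCNE1 (cyclin E1) was at −0.04 ± 0.05 with overlapping groups, over a range that also runs beyond the end of the bin. With windows that overlap no other window the bin was at −0.10 and was not called. The only higher bin, from 60 to 65 Mb on chromosome 18, was at 0.15 ± 0.03 (SE, adjusted p = 0.012), with ΔLEO1 inputs at 0.16, 0.12, 0.18 and 0.14 and wild type between −0.04 and 0.02. Groups lay apart in this direction in 0.833% of bins. PIGN, an enzyme of glycosylphosphatidylinositol synthesis and its leading gene, was at 0.23 ± 0.03. In the ChIP libraries the 4 lower bins were also lower, while the bin on chromosome 18 was at 0.05 with adjusted p = 0.40. Input reads over peak regions called none of the 4 bins that could be tested there (edgeR). They gave −0.05 ± 0.05 on chromosome 10, −0.11 ± 0.09 on chromosome 2, 0.02 ± 0.08 on chromosome 19 and 0.13 ± 0.09 on chromosome 18 (SE), with unadjusted p = 0.25, 0.22, 0.81 and 0.14. The bin on chromosome 1 held too few peak regions to be tested.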

How the data were processed

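Libraries were made from formaldehyde-fixed, sonicated chromatin and sequenced on a HiSeq 2500. The authors deposited raw read counts, whole numbers without scaling, over start-site windows and peak regions. The submitters' processing notes name hg38, dm6, bcl2fastq 2.20.0.422, STAR 2.7.10a and HOMER, without their roles. Of 272902 window rows, 218284 distinct windows on 24 chromosomes were used. Windows overlap, so some reads count more than once. Mitochondrial windows (1.71% to 3.41% of input reads) were left out. Bins needed at least 20 windows, or 10 peak regions. Counts were tested with edgeR 4.0.16 in R 4.3.3 (TMM, Benjamini-Hochberg over all bins, threshold 0.05) and, as an alternative, DESeq2 1.42.0. The test was tried on simulated counts. GC content came from 35116 RefSeq promoters and was removed by loess. Edges used bins of 1 Mb with at least 5 windows.

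The reported fits had no replicate block, and fits with the letter (A or B) as a block were alternatives. Differences between A and B correlated across all 6 pairs of groups (r = 0.176 to 0.549 over bins), but after the GC correction r was −0.014 to 0.243. The labels do not say what a letter marks. Members, lists and tests were chosen with earlier results of these data known. Named genes were LEO1, list genes inside stretches (at most 30, in list order), the genes nearest each edge, and list genes or else the gene with most windows in single bins.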

Additional observations from a re-analysis of the deposited data

Results flagged for a closer look

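Within each genotype, 114 sets of 4 values were checked for a library far from the other 3, by the gap to its neighbour as a share of the whole range, and chance alone is expected to mark about 1 in 20. Marked were 7 values, all of them log2 differences in input reads within 1 Mb of a named gene. ΔLEO1 in 10% serum A stood above the other ΔLEO1 inputs at H2AZ1 (−0.112) and at TET2 (−0.149). ΔLEO1 in 0.1% serum A stood above the others at CTNNB1 (−0.192) and at PIGN (0.316). Among wild-type inputs, 10% serum B stood apart at CTNNB1 (0.086) and at SYNPO2 (−0.103), and 0.1% serum B at CCNE1 (−0.114).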

How the results depend on the processing

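The 24 called bins of the stretches kept their direction under all 19 alternatives with bins of 5 Mb, 18 were called in every one and each of the others in at least 11. Counts of lower and higher bins, 28 and 1, were 16 and 0 with bins of 10 Mb and 48 and 1 with bins of 2 Mb. Higher bins were 2 with library totals, with the replicate block, with no serum term or without the highest 1% of windows, 3 with DESeq2, and 6 with the GC correction, alone or with the replicate block. Leaving out 1 input gave 20 to 42 lower and 0 to 6 higher bins, with the most of both without ΔLEO1 in 10% serum A. Lower arms, 1 of 44, were 2 with no minimum of windows and 3 with DESeq2 or with no serum term, and 0 to 6 without 1 input, the latter again without ΔLEO1 in 10% serum A. The arm 3p was not called without either wild-type input in 10% serum or without ΔLEO1 in 0.1% serum B. Higher arms were 1 with DESeq2 and 0 to 2 without 1 input. Chromosomes were 2 lower and 1 higher with DESeq2, and 0 to 5 lower and 0 to 2 higher without 1 input. In 0.1% serum higher bins, 4, were 12 with the replicate block, 7 with the GC correction and 0 to 16 without 1 input (16 without ΔLEO1 in 10% serum A, 0 without wild type in 0.1% serum A or ΔLEO1 in 0.1% serum B), and lower bins were 18 to 42 (42 without ΔLEO1 in 10% serum B). In 10% serum lower bins, 16, were 3 with library totals, 10 with no minimum of windows and 42 with the replicate block, and higher bins, 1, were 0, 1 and 19. There, DESeq2 gave 3 higher bins and the GC correction 2. Without 1 input the 10% serum contrast gave 2 to 101 lower and 0 to 86 higher bins, with the most without ΔLEO1 in 10% serum B, when its partner is the only library of its group and is assumed to vary like the others, and 2 or 5 lower bins without wild type in 10% serum A or B. The interaction gave 6 and 3 bins with DESeq2, 27 and 32 with the replicate block, and 0 to 90 lower and 0 to 82 higher without 1 input, again the most without ΔLEO1 in 10% serum B. Higher ChIP bins, 41, were 21 to 37 without 1 library, the fewest without wild type in 0.1% serum A. Over peak regions, leaving out 1 input gave 2 to 19 lower and 0 to 1 higher bins, from ΔLEO1 in 0.1% serum B and ΔLEO1 in 10% serum A respectively for the lower ones. With the replicate block the other counts were 30 lower bins, 36 lower bins in 0.1% serum, 84 lower and 40 higher ChIP bins, and 14 lower and 1 higher bins over peak regions. The mean of the chromosome 5 stretch, −0.206, was −0.139 with windows that overlap no other window. The LEO1 difference, −0.354, was −0.425 without ΔLEO1 in 10% serum A, past the threshold, and −0.425 to −0.262 over all inputs left out. Permuting within letters, the replicate block, gave −0.354 with an exact permutation p = 0.056, the smallest that test can give. The causes were not tested. GC corrections of the serum, interaction and ChIP fits and the stretches of the GC-corrected fit were chosen after the data were seen. The LEO1 value rested on 41 to 147 reads per input, with most promoter reads counted in both overlapping windows.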

Other observations

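Outside the called stretches, a second low interval was visible on the long arm of chromosome 4, from 56 to 69 Mb, and was chosen after the data were seen. ΔLEO1 inputs there lay at −0.03 in 10% serum A, −0.25 in 10% serum B, −0.28 in 0.1% serum A and −0.33 in 0.1% serum B, and wild-type inputs at −0.04, −0.12, 0.10 and 0.06 in the same order. The groups overlapped, through ΔLEO1 in 10% serum A. After the GC correction ΔLEO1 lay at −0.10, −0.18, −0.29 and −0.29 and wild type between −0.03 and 0.03, so the groups lay apart. In the fit of both sera the bin from 60 to 65 Mb was called with the correction (−0.26, adjusted p = 0.0038, edgeR) and not without it (adjusted p = 0.30). Without the correction edgeR also called it lower within 0.1% serum (−0.44, adjusted p = 0.016), though not within 10% serum (−0.04, adjusted p = 0.86). It was called lower over peak regions (−0.21, adjusted p = 0.049, edgeR) and in the ChIP libraries (−0.37, adjusted p = 1.1e-05, edgeR). The mean was −0.22 ± 0.08 (SE), −0.21 with the GC correction and −0.38 in the ChIP libraries. Between this interval and the stretch, from 69 to 83 Mb, the mean was −0.01 ± 0.06 in the inputs and 0.006 in the ChIP libraries.

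In the low bin on chromosome 19, the interval from 27 to 28 Mb held 88 distinct windows but only 4 gene symbols, led by the long non-coding RNA LINC00662. Only 16 windows remained when no overlap was allowed. ΔLEO1 inputs there ran from −0.73 to −0.16 and wild-type inputs from −0.26 to 0.22. In the low bin on chromosome 1, the 1 Mb interval led by FCGR1BP was at −0.40 ± 0.06 (SE), with ΔLEO1 inputs from −0.55 to −0.31 and wild type from −0.08 to 0.07, and at −0.43 in the ChIP libraries.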
